A study of Mus musculus with 14 samples.

Results

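Type I interferon-stimulated antiviral effector genes encode the proteins with which a cell resists a virus once interferon has bound its receptor. Of 36 such genes, 35 were found by symbol in both deposited tables, each of 12924 genes, and were followed over all 14 libraries. Mx1 was not analysed here. The rule that finds them in the tables uses the gene symbol alone. The list itself was chosen with earlier results of these data known, so its counts are not independent of those results. None of the 35 was at 0 in any library, and all 35 passed the filter on low values in both tables.

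The study set tumors grown from Lewis lung carcinoma (LLC), a transplantable mouse line, in C57BL/6 wild-type (WT) mice against those in PI3K gamma-null (p110g-/-) mice of the same background, 14 days after the cells were put into the flank. The deletion is in the host, so the carcinoma cells are the same line in every group. Libraries came from 30 mg of whole tumor (3 WT, 3 p110g-/-) or from 1000000 CD11b+Gr1- cells sorted from tumors (4 WT, 4 p110g-/-), which the labels call tumor-associated macrophages (TAM). PI3K gamma is a lipid kinase of leukocytes, whose catalytic subunit p110 gamma is encoded by Pik3cg. The labels do not say that each library is a separate animal, so a p-value here reflects sample-to-sample spread that may be technical.

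As background, type I interferons bind IFNAR1 and IFNAR2, and the kinases JAK1 and TYK2 then switch on the transcription factor complex ISGF3, which holds STAT2 and IRF9 and binds a DNA element called ISRE near the start of its target genes. IRF7, itself a target, raises further interferon production. Interferon-gamma acts chiefly through another element, GAS, and the target genes of both pathways overlap. In tumors, macrophages, dendritic cells and the carcinoma cells can all respond to interferon.

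The ISRE core was found in the promoters of 12 of the 29 members that have a promoter entry, and 4 of the 12, each changed in at least 1 fit, show how it lies there. The stretches below run 5′ to 3′ on the gene's strand. Those of Apol9b, Trim30a and Isg15 end at the last base before the transcription start. That of Bst2 stops short of the start, from which its last match is 114 bases away. All stretches are from RefSeq, build GRCm38.p6. The capitals mark matches to the ISRE core (GAAA, any 2 bases, GAAA), read on either strand, a single match in Trim30a and overlapping matches in the others.
Apol9b (chr15:77728975-77729071, plus strand): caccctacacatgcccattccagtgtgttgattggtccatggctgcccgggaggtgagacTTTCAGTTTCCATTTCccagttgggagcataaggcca
Bst2 (chr8:71537527-71537662, minus strand): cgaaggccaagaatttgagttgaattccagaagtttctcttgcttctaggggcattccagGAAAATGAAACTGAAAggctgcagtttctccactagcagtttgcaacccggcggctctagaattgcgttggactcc
Trim30a (chr7:104465194-104465289, minus strand): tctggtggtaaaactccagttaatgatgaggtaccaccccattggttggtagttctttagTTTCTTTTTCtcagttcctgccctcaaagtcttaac
Isg15 (chr4:156200819-156200956, minus strand): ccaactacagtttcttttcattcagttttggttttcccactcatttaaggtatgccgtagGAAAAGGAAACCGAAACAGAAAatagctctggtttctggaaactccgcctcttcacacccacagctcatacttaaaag

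The capitals begin 37 bases before the start in Apol9b, 130 in Bst2, 36 in Trim30a and 78 in Isg15. Promoter windows run from 250 bases before to 50 after a start, and the 29 members have 37 of them. The ISRE core occurred in 14 of the 37 windows (37.84%), against 1131 of 32851 mouse promoters of the same length (3.44%). The GAS core TTCNNNGAA, which reads the same on both strands, occurred in 8 of the 37 windows (21.62%), against 8.30% of all. The window of Ifi44 held no ISRE core, which says only that those letters are not in that window. A match is a description of sequence and not a site of binding.

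The values are normalized counts, that is, gene counts that the authors scaled by library and rounded. They allow the same gene to be compared between libraries of a table, but not one gene with another, since gene length was not taken into account. Genotypes were compared with limma on log2(normalized count + 1), and "rose" and "fell" are used only of genes whose p-value, after Benjamini-Hochberg adjustment over every gene tested in that table, was below 0.05. TAM libraries of the same number deviated together, so a second fit, blocked on that number, stands beside the first where it changes a call. A fold in parentheses after a log2 value is that value turned into a ratio.

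In p110g-/- TAM, 34 of 35 members were below WT in the fit, the exception being Trim25 (log2 fold change 0.15). The median log2 fold change of the members was −0.65, against −0.01 over the 12475 genes tested. Without the block, 3 members fell: Ifi44, Apol9b and Bst2. None rose (0 higher at an unadjusted p below 0.05). Of all genes tested, 0.0401% fell and 0.0721% rose, and 20 members were lower at an unadjusted p below 0.05. With the block 28 members fell and none rose, where 1.49% of all genes fell and 1.01% rose. Of the 35, 33 were lower in p110g-/- in each of the 4 same-numbered pairs, as were 15.3% of all genes, and 15 had all 4 p110g-/- libraries below every WT library, as had 1.93%. The median log2 ratio of the members was −0.59, −0.71, −0.63 and −0.84 in pairs 1 to 4. The count of 3 rests on the whole set of libraries. It became 0 without WT TAM 2 and 1 without any of WT TAM 3, WT TAM 4, p110g-/- TAM 3 or p110g-/- TAM 4. It was 8 without p110g-/- TAM 1, where 26 of all genes fell, and 0 without the 4 libraries numbered 3 and 4.

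In whole tumors the direction was the other one. There 34 of 35 members were above WT in p110g-/- (33 with quantile normalization, where Apol9b turned), the exception being Ifi27l2a, and the median log2 fold change was 0.34, against 0.01 over the 12717 genes tested. Parp14, Lgals3bp, Tnfsf10, Samhd1, Trim30a, Dtx3l, Parp12 and Uba7 rose, which is 8 members where 2.25% of all genes rose. Ifi27l2a fell, where 2.10% of all genes fell. The values of 18 members did not overlap, with all 3 p110g-/- tumors above every WT tumor, as for 15.7% of all genes. Ifi27l2a alone had all 3 below, as had 15.4%. All 9 calls were lost without any one of WT tumors 1, 2 and 3 or p110g-/- tumors 2 and 3 (15 to 19 members higher at an unadjusted p below 0.05). Without p110g-/- tumor 1, 20 members rose, but so did 980 of all genes, against 286 with every tumor kept.

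**Figure D1:**
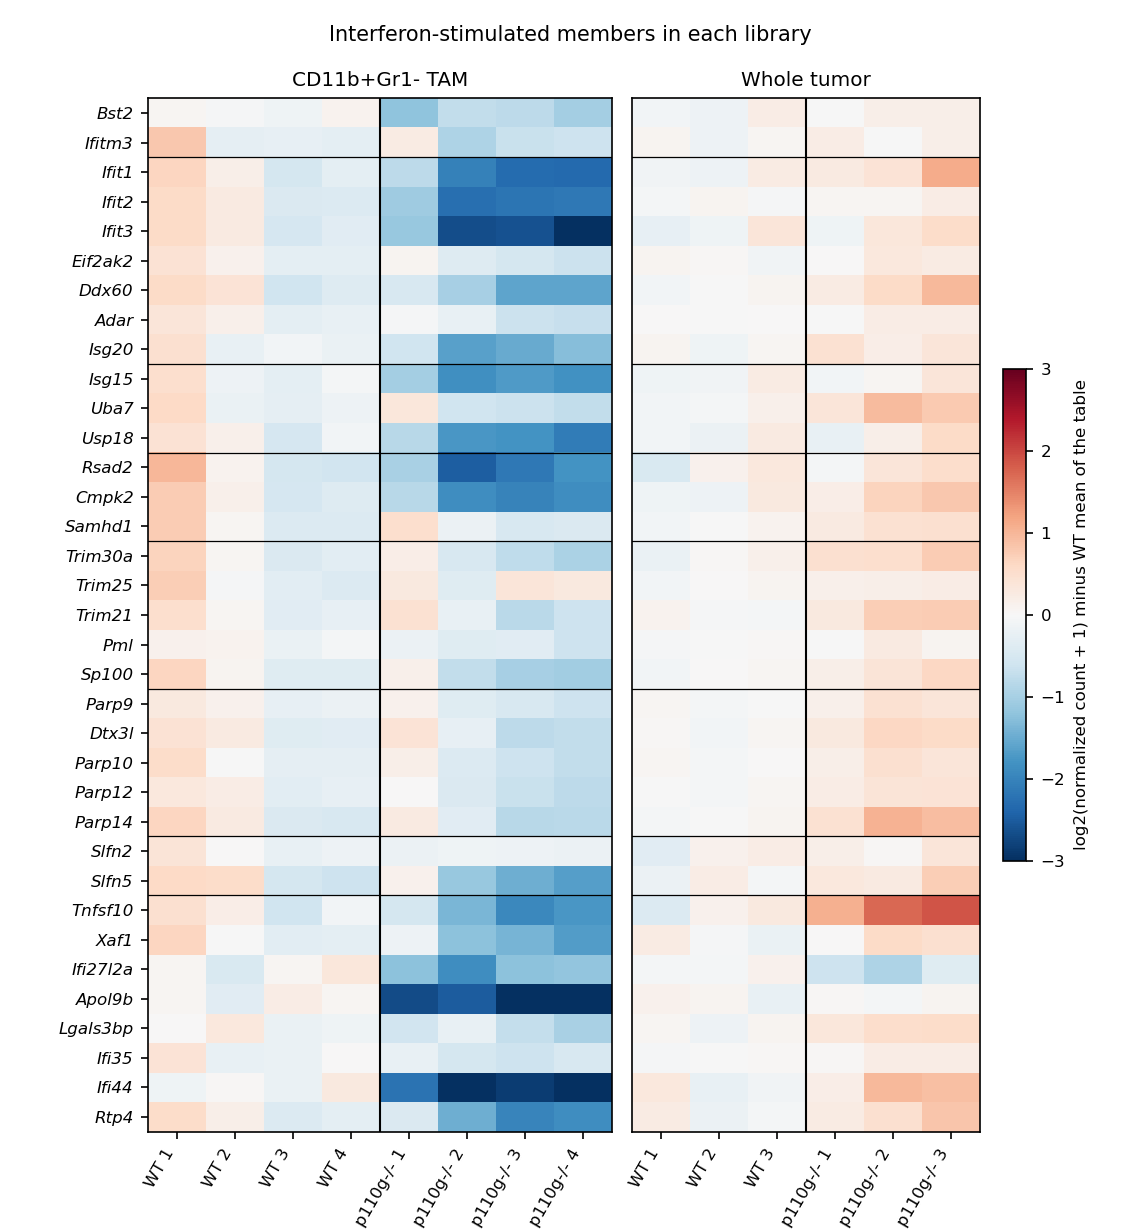
Each row is a member, ordered by role, and each column a library; color is log2(normalized count + 1) minus the WT mean of the same table, clipped at 3 in either direction. In the p110g-/- TAM columns, where 34 of 35 members had a lower mean than WT, most cells are blue. In p110g-/- TAM 1, members such as Samhd1, Dtx3l and Uba7 lay above the WT mean. In the p110g-/- tumor columns, where 34 of 35 members had a higher mean, most cells are red.

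Several facts of the libraries stand beside these counts. The TAM libraries held an estimated 19.7 to 40.7 M reads in genes and the tumors 32.1 to 44.6 M. TAM libraries 3 and 4 had 7.70% to 14.42% of their counts in mitochondrial genes, against 2.51% to 3.21% in numbers 1 and 2. Library 1 was the highest of its group for 30 members in WT TAM and for 29 in p110g-/- TAM. Both of libraries 1 and 2 were above both of 3 and 4 for 26 members in WT against 21 in p110g-/-. Neither count was taken over all genes, so neither is shown to be particular to the members. The differences between libraries run across both genotypes. Their part in the calls was not tested beyond the fits with the block and without those libraries. The median of the members was −0.65 without the 4 libraries numbered 3 and 4 and −0.71 without both numbered 1.

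Markers of the sorted cells were checked as well. Summed over 10 markers, macrophage genes held 328680 to 418887 normalized counts in WT TAM against 304365 to 412593 in p110g-/- TAM, and no marker of any list was at 0 in every library. Of the macrophage markers, Fcgr1, which encodes a high-affinity antibody receptor, was lower in p110g-/- in all 4 pairs, at 10567, 7343, 5491 and 5036 against 16633, 9998, 8676 and 9257. It fell with limma and the block (log2 fold change −0.66, adjusted p = 0.0103) and was not called without it (adjusted p = 0.824). Of the monocyte markers, Ly6c2 (log2 fold change −1.99, adjusted p = 0.00604) and Plac8 (−1.30, adjusted p = 0.00805) fell in p110g-/- TAM with limma and the block, neither without it (adjusted p = 0.36 and 0.999). Chil3 and Ccr2 were called in neither fit. Chil3 was at 1404, 259, 104 and 116 in WT against 734, 382, 463 and 560 in p110g-/-, higher in every pair but the first. Ccr2 was at 63264, 36060, 31062 and 29026 against 69414, 40127, 20781 and 23457, higher in pairs 1 and 2 only. The sum of the 4 monocyte markers, most of it Ccr2, was 30788 to 70533 in WT against 21757 to 72944 in p110g-/-. Plasmacytoid dendritic cell markers, 4 of which were present, summed to 2602 to 3665 and 2846 to 4025, and none of the 3 tested in TAM was called. Most of that sum was Tcf4, at 2527 to 3615 in WT and 2803 to 3968 in p110g-/-. Siglech, at 4 to 16 and 2 to 8, and Ccr9, at 11 to 21 and 6 to 19, were low in both genotypes, so this sum says little of such cells. Fibroblast markers summed to 2538 to 52862 in WT and 661 to 41138 in p110g-/- TAM. Col3a1, a fibrillar collagen gene of that list, stood at 1859, 22074, 39848 and 43787 in WT and at 458, 7161, 34491 and 24310 in p110g-/-, so the libraries numbered 1 were the lowest of each genotype. All 6 fibroblast markers were lower in p110g-/- in the fit (median −0.995, log2 scale), and none was called with limma (0 at an unadjusted p below 0.05 without the block and 5 with it, where the lowest adjusted p was 0.0851). Of 4 carcinoma markers, 2 were lower and 2 higher in p110g-/- TAM, and none was called with limma in either fit (2 higher at an unadjusted p below 0.05 without the block). Krt8, a keratin gene of that list, was at 76, 499, 1573 and 1648 in WT against 46, 197, 1569 and 1194 in p110g-/-. Cdh1, of the same list, was at 2453, 1428, 1177 and 1008 against 2107, 3774, 1801 and 2294. In bulk libraries fewer cells of a type and less RNA per cell cannot be told apart, and the part of these cells in the members' values was not tested. Pik3cg, the deleted gene, checks the labels. Its normalized counts in TAM were below WT in all 4 pairs, at 2203, 2211, 1210 and 1401 in p110g-/- against 3745, 4477, 3070 and 2748 (−1.02, adjusted p = 0.299, and 0.00557 with the block). In whole tumors they were 242, 279 and 417 against 487, 616 and 527 (−0.83, adjusted p = 0.0555), again without overlap.

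The first members described act at membranes. Bst2 encodes tetherin, which holds budding virus at the cell surface. Its normalized counts in TAM 1 to 4 were 4601, 4338, 4070 and 4808 in WT against 1933, 2658, 2568 and 2186 in p110g-/-. Every p110g-/- library was below every WT library, and WT libraries differed little among themselves. Bst2 fell by 0.94 on the log2 scale (1.92-fold, SE 0.11, adjusted p = 0.0302 with limma). The call was lost without any one library except WT TAM 1 and p110g-/- TAM 1 (adjusted p up to 0.166). Whole tumors 1 to 3 held 2020, 1929 and 2499 in WT against 2135, 2396 and 2410 in p110g-/-, which overlap (log2 fold change 0.11, adjusted p = 0.507). Ifitm3, which blocks fusion of incoming virus with endosomes, was at 16024 to 33947 in WT TAM against 10252 to 23336 in p110g-/- TAM. Its log2 fold change was −0.49, with an adjusted p of 0.999 without the block and 0.021 with it.

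The next 7 members sense, edit or degrade RNA or stop its translation. Their median log2 fold change was −1.26 in TAM and 0.25 in whole tumors. All 7 fell in TAM with the block, where 1.49% of all genes fell, and none without it (5 at an unadjusted p below 0.05). None was called in whole tumors (3 at an unadjusted p below 0.05). The IFIT proteins bind foreign RNA and block translation from it. Ifit2 was at 3260, 2649, 1639 and 1665 normalized counts in WT TAM against 1045, 461, 478 and 500 in p110g-/- TAM. The groups did not overlap, and p110g-/- TAM 1 was higher than any other library of its group. The log2 fold change was −1.92 (3.78-fold lower, SE 0.33), with a limma adjusted p of 0.115 without the block and 0.0031 with it. In whole tumors Ifit2 overlapped, at 583, 639 and 592 in WT against 633, 630 and 701 in p110g-/- (log2 fold change 0.11, adjusted p = 0.363).

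Ifit3, the neighbour of Ifit2 in the genome, was at 1420 to 3034 in WT TAM against 236 to 912 in p110g-/- TAM, the largest fitted decrease among these 7 (log2 fold change −2.38, adjusted p = 0.154, and 0.00362 with the block). Ifit1 was at 984 to 2216 and 281 to 824 (−1.86, adjusted p = 0.228, and 0.0025 with the block). A near-identical copy of Ifit3 exists in the mouse, and no source used here states how shared reads were counted, so its level is uncertain. Isg20, an exonuclease that degrades single-stranded RNA, was at 547, 338, 373 and 343 in WT TAM against 257, 126, 137 and 161 in p110g-/- TAM. No p110g-/- library reached the lowest WT library. Its log2 fold change was −1.26 (2.39-fold lower, SE 0.26, adjusted p = 0.225, and 0.00612 with the block). In whole tumors Isg20 was at 289, 249 and 285 in WT against 379, 316 and 353 in p110g-/-, all above WT, without passing the test (0.35, adjusted p = 0.0943).

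Ddx60, a helicase linked to RNA sensing, was at 698, 628, 308 and 357 in WT TAM against 335, 233, 157 and 157 in p110g-/- TAM. The groups overlapped, because p110g-/- TAM 1 lay above WT TAM 3. Within pairs it was lower by 0.97 to 1.43 on the log2 scale each time (adjusted p = 0.507, and 0.00708 with the block). The whole tumors went the other way, at 76, 80 and 86 in WT against 96, 121 and 159 in p110g-/- (log2 fold change 0.60, adjusted p = 0.107). Eif2ak2, which encodes PKR, the kinase that halts translation on double-stranded RNA, was at 1577 to 2600 in WT TAM against 1223 to 2041 in p110g-/- TAM (−0.37). Adar, the enzyme that edits adenosine in double-stranded RNA, was at 2723 to 4320 and 2079 to 3263 (−0.40). Both overlapped between genotypes and passed only with the block (adjusted p = 0.0431 and 0.0148).

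ISG15 is a ubiquitin-like protein. UBA7 is the enzyme that activates it, and USP18 removes it from its targets and also damps signalling at IFNAR2. Isg15 was at 2860, 1804, 1635 and 1928 normalized counts in WT TAM against 994, 559, 615 and 574 in p110g-/- TAM. The highest p110g-/- library was well below the lowest WT library. Its log2 fold change was −1.59 (3.01-fold lower, SE 0.23), with an adjusted p of 0.0683 without the block and 9.6e-04 with it. In whole tumors, where Isg15 was at 267, 270 and 345 in WT against 276, 302 and 376 in p110g-/-, the genotypes overlapped (log2 fold change 0.11, adjusted p = 0.672). Usp18 was at 774 to 1496 in WT TAM against 256 to 617 in p110g-/- TAM (−1.62, adjusted p = 0.155, and 0.00579 with the block).

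Uba7 had another pattern. In TAM it was at 3218, 1859, 1769 and 1912 in WT against 2669, 1412, 1354 and 1281 in p110g-/-, with both libraries numbered 1 far above the rest and overlapping groups. Its log2 fold change was −0.41 (adjusted p = 0.999, and 0.0343 with the block). In whole tumors Uba7 rose from 473, 485 and 558 to 652, 980 and 863 (log2 fold change 0.70, 1.63-fold, SE 0.15, adjusted p = 0.0413). Of 4 other genes of this conjugation system, Ube2l6, the E2 enzyme for ISG15 (−0.56, adjusted p = 0.0171), and Herc6, its main ligase in the mouse (−0.58, adjusted p = 0.0331), fell in TAM with the block. Neither fell without it (adjusted p = 0.286 and 0.729), and none of the 4 was called in whole tumors (2 at an unadjusted p below 0.05, both higher).

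**Figure D2:**
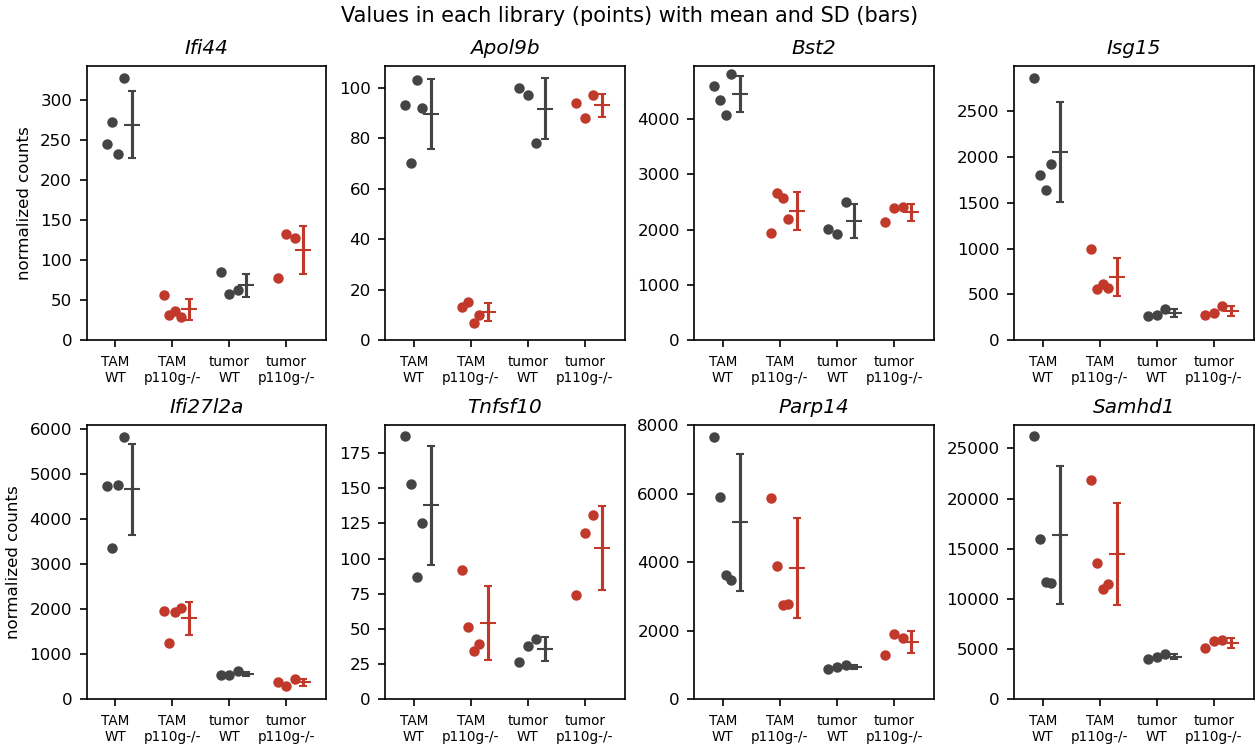
Normalized counts of 8 members in each library (points) with mean and SD (bars) on linear axes that start at 0; gray is WT and red p110g-/-, n = 4 per TAM group and 3 per tumor group. Ifi44, Apol9b, Bst2, Isg15 and Ifi27l2a had no overlap between genotypes in TAM, and Ifi27l2a, Tnfsf10, Parp14 and Samhd1 had none in whole tumors.

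Of the members that act on nucleotides and replication, Rsad2 and Cmpk2 are neighbours in the genome with no coding gene between them. RSAD2, or viperin, makes from CTP a nucleotide that ends viral RNA chains, and CMPK2 is a nucleotide kinase that supplies it. Cmpk2 was at 1448, 954, 601 and 655 in WT TAM against 482, 236, 212 and 236 in p110g-/- TAM. The groups did not overlap (log2 fold change −1.64, 3.12-fold lower, SE 0.35, adjusted p = 0.237, and 0.0025 with the block). Rsad2 was at 1247 to 3713 in WT TAM against 335 to 951 in p110g-/- TAM (−1.85, adjusted p = 0.286, and 0.00855 with the block). In whole tumors Cmpk2 was at 99, 98 and 133 in WT against 126, 174 and 192 in p110g-/- (0.56, adjusted p = 0.124), and Rsad2 was at 209 to 357 and 273 to 409 (0.27, adjusted p = 0.47).

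Samhd1 cuts the nucleotide pool down by hydrolysing dNTPs. Unlike Cmpk2 and Rsad2, it was not called in TAM in either fit: it was at 26226, 15959, 11627 and 11569 in WT against 21849, 13539, 10959 and 11465 in p110g-/- (log2 change −0.15 ± 0.31 SE, adjusted p = 0.999, and 0.283 with the block). Libraries numbered 1 were high in both genotypes, and without WT TAM 1 the sign turned (0.11). In whole tumors Samhd1 rose from 3995, 4142 and 4505 to 5043, 5794 and 5896 (0.40, 1.32-fold, SE 0.07, adjusted p = 0.0319). All 3 p110g-/- tumors were above all WT tumors.

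TRIM proteins are ubiquitin ligases of innate immunity, and PML and SP100 build nuclear bodies that silence viral DNA. In this group of 5, the median log2 fold change was −0.38 in TAM and 0.40 in whole tumors, and only Sp100 and Trim30a fell in TAM with the block. Trim30a was at 5720, 3754, 2657 and 2886 in WT TAM against 4131, 2558, 2121 and 1862 in p110g-/- TAM. The groups overlapped, though each pair was lower in p110g-/- (log2 fold change −0.50, adjusted p = 0.999, and 0.0162 with the block). In whole tumors Trim30a rose from 424, 494 and 541 to 681, 683 and 817 (0.58, SE 0.11, adjusted p = 0.0348). Related Trim30 genes lie in the same family, so the split of reads among them is uncertain.

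Sp100 was at 6130, 4148, 3060 and 3050 in WT TAM against 4397, 2364, 1980 and 1893 in p110g-/- TAM. Its groups overlapped through p110g-/- TAM 1, and each pair was lower (−0.65, SE 0.32, adjusted p = 0.942, and 0.00739 with the block). In whole tumors Sp100 was at 670, 717 and 732 in WT against 798, 927 and 1093 in p110g-/-, without overlap but also without passing the test (0.40, adjusted p = 0.077). Trim25, which activates the RNA sensor RIG-I, was at 4335 to 9595 in WT TAM against 4470 to 7441 in p110g-/- TAM. It was lower in p110g-/- in pairs 1 and 2 and higher in pairs 3 and 4 (adjusted p = 0.999). Trim21, the cytosolic antibody receptor, was at 567 to 1023 and 411 to 977 in TAM, and Pml at 1570 to 1978 and 1165 to 1579. Neither was called in TAM in either fit (lowest adjusted p = 0.0801, Pml with the block).

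Of the 5 members that attach ADP-ribose or work with such enzymes, Parp14, Dtx3l and Parp9 lie next to each other in the genome. DTX3L is a ubiquitin ligase that pairs with PARP9. All 5 members had every p110g-/- tumor above every WT tumor, as had 15.7% of all genes. In whole tumors 3 of the 5 rose, where 2.25% of all genes rose. Parp14 rose from 890, 920 and 993 to 1288, 1910 and 1769 (log2 fold change 0.81, 1.75-fold, SE 0.14, adjusted p = 0.028). Dtx3l rose from 767, 705 and 785 to 918, 1165 and 1122 (0.50, 1.41-fold, SE 0.10, adjusted p = 0.0361). Parp12 rose from 944, 905 and 988 to 1097, 1245 and 1261 (0.34, 1.27-fold, SE 0.07, adjusted p = 0.0413). For these 3 genes p110g-/- tumor 1 was the lowest of its group. Parp10 was at 1195, 1106 and 1157 in WT tumors and 1303, 1598 and 1471 in p110g-/- tumors (0.33, adjusted p = 0.0566), and Parp9 at 820 to 892 and 952 to 1181 (0.33, adjusted p = 0.0682).

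The same 5 genes were lower by 0.34 to 0.47 on the log2 scale in p110g-/- TAM, and none fell without the block (0 at an unadjusted p below 0.05). Parp14 was at 7670, 5914, 3613 and 3488 in WT TAM against 5869, 3886, 2759 and 2769 in p110g-/- TAM. The spread from library 1 to library 4 within a genotype was wider than the step between genotypes, which was seen in each pair (−0.43, adjusted p = 0.999, and 0.0218 with the block). Parp12 was at 3021, 2811, 1953 and 2048 in WT TAM against 2430, 1783, 1513 and 1397 in p110g-/- TAM (adjusted p = 0.0288 with the block). Parp10 was at 2489, 1671, 1390 and 1408 and at 1901, 1261, 1095 and 1017 (adjusted p = 0.0213 with the block). Dtx3l, at 3028, 2729, 1751 and 1780 in WT TAM against 2970, 1908, 1307 and 1358 in p110g-/- TAM, was not called with the block either (adjusted p = 0.113). Nor was Parp9, at 1717 to 2472 and 1308 to 2219 (adjusted p = 0.0851).

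Schlafen proteins restrain cell growth, and some cut transfer RNA. Slfn5 was at 4113, 3997, 1891 and 1784 in WT TAM against 2963, 1249, 987 and 866 in p110g-/- TAM. Libraries 1 and 2 of WT and library 1 of p110g-/- stood above the others, and the groups overlapped (log2 fold change −1.03, SE 0.44, adjusted p = 0.834, and 0.0361 with the block). In whole tumors Slfn5 was at 229, 302 and 245 in WT against 322, 309 and 427 in p110g-/- (0.44, adjusted p = 0.128). Slfn2, needed for quiescence of T cells and monocytes, was at 8399 to 12743 in WT TAM against 8658 to 9027 in p110g-/- TAM, and was not called (adjusted p = 0.999, and 0.492 with the block).

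The last 8 members include genes of cell death and genes known mainly for their induction by interferon. All 8 were lower in p110g-/- TAM in every pair, as were 15.3% of all genes, and 6 of them without overlap, as were 1.93%. The median log2 fold change of the 8 was −1.39 in TAM and 0.41 in whole tumors. In TAM all 8 fell with the block, where 1.49% of all genes fell. Ifi44, a cytosolic protein with a GTP-binding motif, was at 245, 272, 232 and 327 in WT TAM against 57, 32, 36 and 29 in p110g-/- TAM. The highest p110g-/- value lay far under the lowest WT value. Ifi44 fell by 2.81 on the log2 scale (7.01-fold, SE 0.25, adjusted p = 0.00773). The call was lost without WT TAM 2 (adjusted p = 0.074) and without the 4 libraries numbered 3 and 4 (adjusted p = 1). In whole tumors it was at 85, 58 and 63 in WT against 78, 133 and 127 in p110g-/-, with p110g-/- tumor 1 inside the WT range (0.69, adjusted p = 0.13).

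Apol9b belongs to the apolipoprotein L family. It was at 93, 70, 103 and 92 normalized counts in WT TAM against 13, 15, 7 and 10 in p110g-/- TAM. A count of 3 reads is worth up to 5.81 normalized counts in the p110g-/- TAM libraries, so their values rest on few reads. Apol9b fell by 2.92 on the log2 scale (7.56-fold, SE 0.32, adjusted p = 0.0215), and the call was lost without any one of WT TAM 2, 3 and 4 or p110g-/- TAM 3 and 4 (adjusted p up to 0.124). In whole tumors the genotypes overlapped, at 100, 97 and 78 in WT against 94, 88 and 97 in p110g-/- (0.03, adjusted p = 0.925). Its neighbour in sequence, Apol9a, was listed at 5, 17, 45 and 71 in WT TAM against 0, 0, 30 and 23 in p110g-/- TAM. The counts of both genes are uncertain, since reads may be shared between them.

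Ifi27l2a, a small interferon-induced membrane protein, was the one member lower in p110g-/- in both tables. In TAM it was at 4733, 3348, 4751 and 5815 in WT against 1946, 1253, 1939 and 2025 in p110g-/-, without overlap (log2 fold change −1.38, 2.60-fold lower, SE 0.20, adjusted p = 0.0683, and 7.7e-04 with the block). In whole tumors it fell from 539, 536 and 616 to 368, 296 and 437 (−0.63, 1.55-fold, SE 0.14, adjusted p = 0.0497), close to the threshold. Here too every p110g-/- value was under every WT value.

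Tnfsf10 encodes TRAIL, a ligand that kills cells through death receptors. It was at 187, 153, 87 and 125 in WT TAM against 92, 51, 34 and 39 in p110g-/- TAM, with p110g-/- TAM 1 just above WT TAM 3 (log2 fold change −1.39, 2.62-fold lower, SE 0.37, adjusted p = 0.407, and 0.0144 with the block). In whole tumors Tnfsf10 rose from 26, 38 and 43 to 74, 118 and 131, the largest rise of any member (1.56, 2.94-fold, SE 0.27, adjusted p = 0.0293). The lowest p110g-/- tumor was above the highest WT tumor.

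Lgals3bp encodes a secreted glycoprotein that binds galectins. It was at 8567, 10565, 7341 and 7763 in WT TAM against 5707, 7233, 5154 and 4325 in p110g-/- TAM, all below WT (−0.62, SE 0.17, adjusted p = 0.43, and 0.0091 with the block). In whole tumors Lgals3bp rose from 2428, 2106 and 2481 to 2949, 3337 and 3404 (0.47, 1.38-fold, SE 0.08, adjusted p = 0.0293). Rtp4, a chaperone of receptors and a known brake on interferon responses, was at 1897, 1451, 964 and 1049 in WT TAM against 957, 467, 329 and 357 in p110g-/- TAM. Its groups came close without overlapping (−1.43, SE 0.36, adjusted p = 0.358, and 0.00398 with the block). Rtp4 in whole tumors was at 246, 182 and 198 in WT against 247, 291 and 369 in p110g-/- (0.53, adjusted p = 0.112). Xaf1, which promotes apoptosis, was at 865 to 1692 in WT TAM against 337 to 974 in p110g-/- TAM (−1.12). Ifi35, a leucine zipper protein, was at 1674 to 2574 and 1266 to 1671 (−0.47). Both passed only with the block (adjusted p = 0.00621 and 0.0234).

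The difference between the genotype effects, TAM minus whole tumor, was tested over all 14 libraries. It was negative for 35 of 35 members (Trim25, at −0.04, turned in 4 of the alternatives), with a median of −1.09 on the log2 scale, against −0.02 over the 12396 genes tested in both tables. For Ifi44 it was −3.50 (SE 0.37, adjusted p = 0.00839), for Apol9b −2.95 (SE 0.34, adjusted p = 0.0102) and for Bst2 −1.05 (SE 0.17, adjusted p = 0.0328). These 3 members passed without the block, where 0.105% of all genes passed on the negative side, and 29 had an unadjusted p below 0.05. With the block 32 passed, where 2.21% of all genes did. In this fit the block also uses the numbers of the whole tumors, which do not pair them. Tnfsf10 had a difference of −2.95 as well but a wider error (SE 0.52, adjusted p = 0.0587, and 5.1e-04 with the block). Slfn2, Trim25 and Pml passed in neither fit. The count became 0 without WT tumor 2 or p110g-/- tumor 2 (26 members at an unadjusted p below 0.05 each time). It was 13 without p110g-/- TAM 1, where 81 of all genes passed on the negative side.

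**Figure D3:**
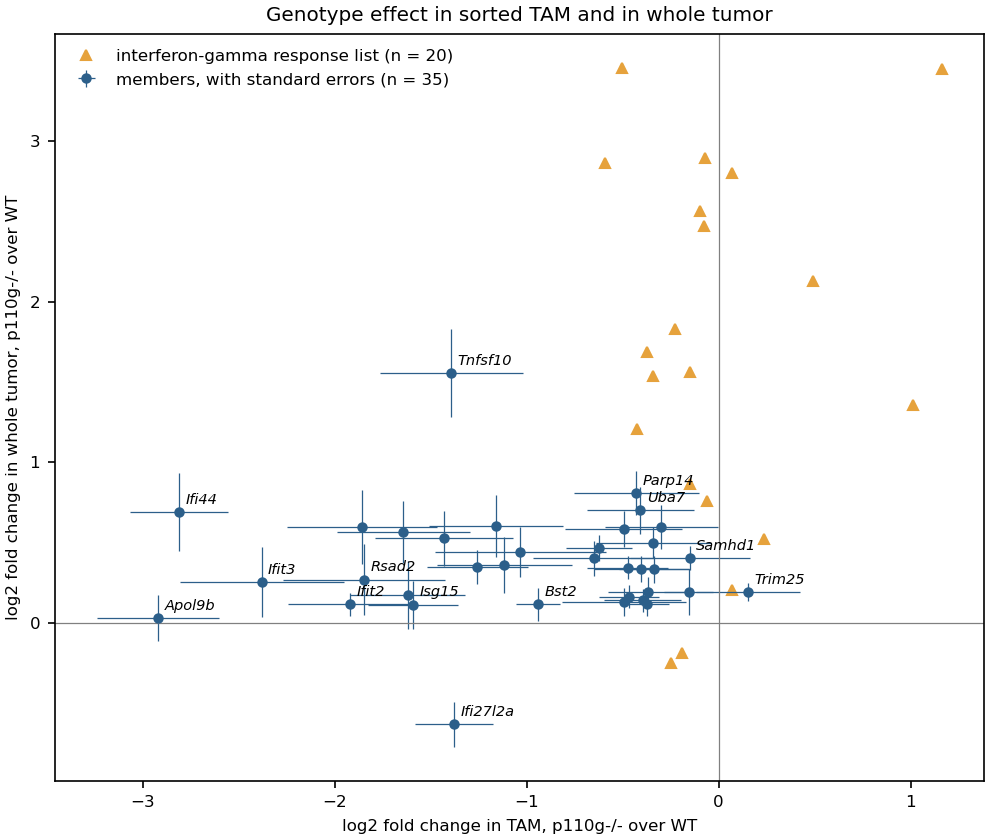
Log2 fold change of p110g-/- over WT in TAM (horizontal) and in whole tumor (vertical) for the 35 members, with standard errors, and for 20 genes of an interferon-gamma response list (triangles, no errors drawn). Members spread to the left along a line just above 0, while the triangles gather near 0 in TAM and reach up to 3.46 in whole tumor.

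Upstream of the members, 8 genes of the receptor and its signalling were measured. In TAM none of the 8 was called with limma without the block (2 at an unadjusted p below 0.05, both lower), and Irf7, Stat2 and Irf9 fell with it. Irf7 was at 11759, 8994, 6201 and 7325 in WT TAM against 3605, 1828, 1642 and 1403 in p110g-/- TAM, so that no p110g-/- library reached a WT library. Its log2 fold change was −2.08 (SE 0.31, adjusted p = 0.0683, and 0.00105 with the block). Stat2 (−0.75, adjusted p = 0.00739 with the block) and Irf9 (−0.34, adjusted p = 0.027 with the block) showed smaller steps. The receptor genes Ifnar1 (0.10) and Ifnar2 (−0.17) and the kinase genes Jak1 (0.04) and Tyk2 (−0.06) were not called in TAM in either fit. None of 20 type I and III interferon genes was matched, so the ligands were not analysed here.

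Genes that lead to interferon production and genes that end its signal were read next. Of 14 sensors, adaptors and kinases of induction, none was called in TAM without the block (2 at an unadjusted p below 0.05), and Mb21d1, which encodes the DNA sensor cGAS, fell with it (−0.45, adjusted p = 0.0343). The largest fitted change among the 14 was that of Tlr9, a receptor for DNA (−0.77, adjusted p = 0.832 without and 0.154 with the block), singled out after its values were seen. None of the 14 passed in whole tumors (7 at an unadjusted p below 0.05, all higher). Of 8 negative regulators, none was called in either table with limma (1 at an unadjusted p below 0.05 in each). In TAM that one was Socs3, an inhibitor of cytokine receptor signalling, at 14429, 11613, 7802 and 8500 in WT and, without overlap, 17028, 16435, 14900 and 16456 in p110g-/-. Its log2 fold change of 0.66 had an adjusted p of 0.46 without and 0.0549 with the block, and it too was singled out after its values were seen.

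A further 33 interferon-stimulated genes outside the members were read the same way. In TAM 32 of them were lower in p110g-/-, with a median log2 fold change of −0.97. None passed without the block (18 at an unadjusted p below 0.05), 26 fell with it, and Ifitm1, a relative of Ifitm3, rose with it (0.72, adjusted p = 0.0109). In whole tumors their median was 0.35, and Zbp1, a sensor that can start necroptosis (0.87, adjusted p = 0.0293), and Pydc3 (1.26, adjusted p = 0.0244) rose. Both lists were drawn with the same response in mind and share its regulation, so they do not stand as independent counts.

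The interferon-gamma response list had another pattern. It holds genes that answer chiefly to interferon-gamma, among them the guanylate-binding proteins and the immunity-related GTPases. It also holds the ligand gene Ifng and the receptor genes Ifngr1 and Ifngr2. Of 20 tested in TAM, none was called without the block (2 at an unadjusted p below 0.05, both higher), their median was −0.12, and Cxcl9, a chemokine that draws T cells, rose with the block (1.16, adjusted p = 0.0149). In whole tumors 16 of 21 rose, Ifng among them, where 2.25% of all genes rose. The median of the list was 1.69, where that of the members was 0.34. T cell markers were higher in the same tumors: their sum over 6 genes was 99 to 248 in WT against 448 to 601 in p110g-/-, and 4 of the 6 rose. The keratin genes Krt8 and Krt18 of the carcinoma list fell in the p110g-/- tumors (−0.63 and −0.45, adjusted p = 0.00818 and 0.0164). The part of these cells in the members' higher values in p110g-/- whole tumors was not tested.

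**Figure D4:**
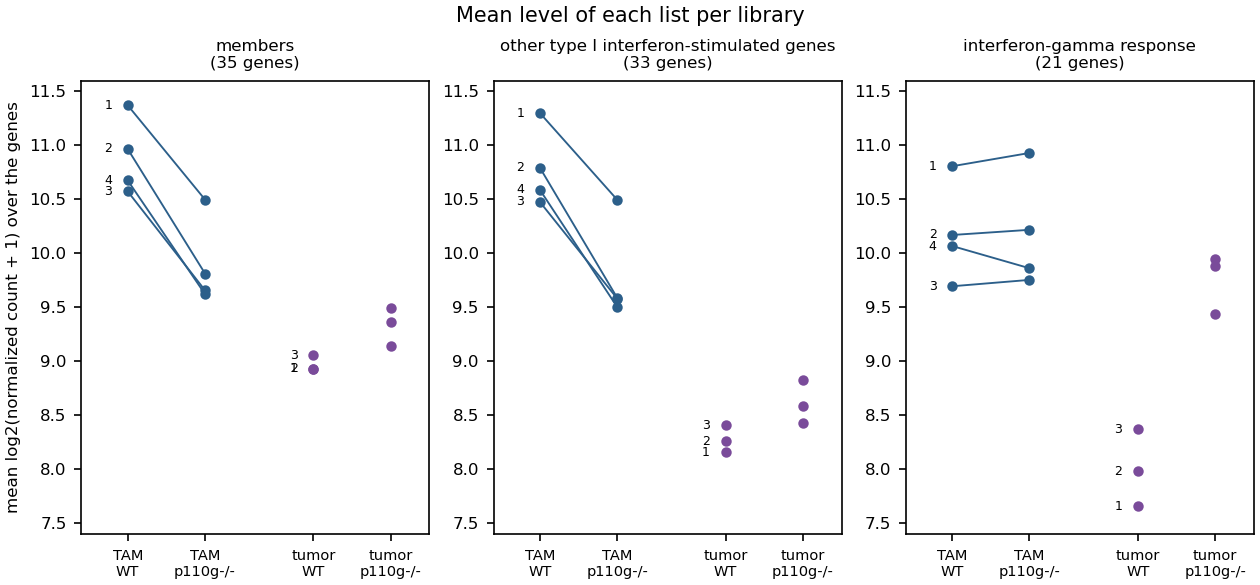
Mean log2(normalized count + 1) over the members, over the other interferon-stimulated genes and over the interferon-gamma list, for each library; numbers beside WT points are library numbers, lines join same-numbered TAM libraries, and tumors are not joined. The member mean lay at 10.57 to 11.37 in WT TAM, 9.62 to 10.50 in p110g-/- TAM, 8.93 to 9.05 in WT tumors and 9.14 to 9.50 in p110g-/- tumors.

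The tables were normalized separately, so levels in TAM and in whole tumor are set side by side only. The mean of log2(normalized count + 1) over the 35 members was 11.37, 10.97, 10.57 and 10.68 in WT TAM 1 to 4 and 10.50, 9.81, 9.66 and 9.62 in p110g-/- TAM. Every p110g-/- TAM library was below every WT one on this mean. In whole tumors it was 8.93, 8.93 and 9.05 in WT against 9.14, 9.37 and 9.50 in p110g-/-, again without overlap and in the other direction. No test was run on these means.

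The promoter windows were read against the changes as a description. The 12 members whose window held the ISRE core had a median log2 fold change of −1.10 in TAM, and the 17 whose window did not had −0.47. Both sets held large decreases, to −2.92 (Apol9b) with the core and −2.81 (Ifi44) without it. In whole tumors the medians were 0.26 and 0.36. Both of the authors' deposited tables carry a column headed pp, with a number between 0 and 1 for every gene; no source used here defines it. In the authors' deposited table of TAM 27 of the 35 members had a value above 0.95, against 283 of all genes (2.19%). In the authors' deposited table of whole tumors Samhd1, Trim30a and Tnfsf10 did, which is 3 of 35, against 141 of all genes (1.09%).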

How the data were processed

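RNA was sequenced by the authors from 14 mouse libraries. Bowtie2, DESeq and build mm9 are named, without versions, in the submitters' processing notes; no source used here states the gene counter, its strand setting or the annotation. The deposited values are a score: gene counts scaled by a factor per library and rounded to whole numbers, called normalized counts, as read from the values. The authors also deposited a fraction per gene, headed pp. The factor was estimated from gaps between low values with a step finder that, tested on simulated data, was within 1% for 14 of 14 libraries. Totals were 33248294 to 38153438 normalized counts per TAM library and 25883561 to 27586429 per tumor library, and 3 reads equal 1.79 to 5.81 of them (counting error only).

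limma 3.58.1 (R 4.3.3) was run, with a mean-dependent prior, on log2(normalized count + 1), which understates changes of low genes. Genes with at least 10 in 4 TAM or 3 tumor libraries were tested, two-sided, and p-values were adjusted over all of them. The step from raw counts could not be repeated, so no count model was used. limma was also tested on simulated data. The correlation between same-numbered libraries, taken over deviations from the mean of each group, was 0.847, 0.472, 0.808 and 0.702 in TAM (12475 genes), so those numbers were treated as pairs, from the data and not from a label, although numbers 3 and 4 also matched across (0.704 and 0.777). In tumors it was 0.095, 0.076 and 0.178, and the numbers were not. The block in the test of the difference still uses the tumor numbers. Alternatives are in the closing section. Promoters came from RefSeq (GRCm38.p6) and were joined by symbol; coordinates belong to that build, not to mm9.

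Values for every library are given for members past the test in either fit and table, at most 20 by smallest adjusted p, and for the best member of a role group without one; others are given by range. The members and all gene lists were chosen with earlier results of these data known. Results for 1 gene of the signalling list are not reported here.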

Additional observations from a re-analysis of the deposited data

Results flagged for a closer look

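In TAM, 11 of 70 groups of 4 values (35 members in 2 genotypes) had a highest or lowest library set apart from the other 3 by more than Dixon's 95% critical value. The ratio was taken on normalized counts, not on the log2 scale. Chance gives about 1 in 20 for unrelated groups. The members share the same libraries, so that rate is no measure for the 11. Library 1 was the high one in 9 of the 11. In WT TAM these were Ifitm3 (33947 normalized counts in library 1, the others 16024 to 16496), Isg20 (547, others 338 to 373) and Uba7 (3218, others 1769 to 1912). In p110g-/- TAM they were Ifit1 (824, others 281 to 345), Ifit2 (1045, others 461 to 500), Ifit3 (912, others 236 to 327), Isg15 (994, others 559 to 615), Cmpk2 (482, others 212 to 236) and Uba7 (2669, others 1281 to 1412). In p110g-/- TAM, library 2 was the low one for Trim25 (4470, others 7048 to 7441) and for Ifi27l2a (1253, others 1939 to 2025).

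The genotype effect differed between TAM and whole tumor, by limma's test of the difference itself, for Ifi44 (−3.50 on the log2 scale), Apol9b (−2.95) and Bst2 (−1.05).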

How the results depend on the processing

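Pseudocounts of 0.5 and 5, no filter and a filter of 50 normalized counts left every count of members within 1.5 times. Members that fell in TAM, 3 as reported, were 1 with quantile normalization, 20 with sample quality weights, 11 in one fit of all 14 libraries, 28 with the replicate block and 0 to 8 with one library left out (0 without WT TAM 2, where 19 had an unadjusted p below 0.05 with limma). Of all genes, 5 fell as reported, 2 with quantile normalization, 363 with weights, 40 in one fit of all 14 libraries and 186 with the block. Chosen after seeing the data, leaving out the 4 libraries numbered 3 and 4 gave 0 (16 at an unadjusted p below 0.05). Leaving out both numbered 1 gave 13, where 61 of all genes fell. Members that rose in TAM, 0 as reported (0 at an unadjusted p below 0.05), were 1 with weights, where 670 of all genes rose. The TAM median ranged from −0.85 to −0.52 with one library left out. In whole tumors 8 rose (286 of all genes), and 23 did with weights (1240 of all genes). The count was 0 in one fit of all 14 libraries (5 at an unadjusted p below 0.05) and 9 with the replicate block (439 of all genes). It was 0 to 20 with one library left out, and at 20, 980 of all genes rose. As reported 1 fell, and 0 did in one fit of all 14 libraries and 0 to 1 with one left out. The numbers do not pair the tumors, so that block is only a number there; it added Sp100 (adjusted p = 0.0456) and lost no call. Differences between the genotype effects, 3 as reported (13 of all genes on the negative side), were 30 with weights (627) and 32 with the replicate block (274). That block uses the tumor numbers too. With one library left out the count was 0 to 13, and at 13, 81 of all genes passed on that side. Reversed signs were those of Samhd1 in TAM without WT TAM 1 (leave-one-out range −0.368 to 0.106), of Apol9b in tumors with quantile normalization (−0.104), with weights (−0.031) and without WT tumor 3 or p110g-/- tumor 3 (−0.083 and −0.003, range −0.083 to 0.094), and of Isg15 in tumors without p110g-/- tumor 3 (range −0.016 to 0.231). Of the other members, Usp18 turned in tumors without p110g-/- tumor 3 (−0.024), Slfn2 in TAM with weights (0.023), and Trim25 in TAM without the libraries numbered 3 and 4 (−0.392) and in the difference with weights (0.396) and without WT TAM 1, p110g-/- TAM 2 or WT tumor 1 (0.01 to 0.21). No value that turned was called. The cause was not tested. Depth limits Apol9b in p110g-/- TAM.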
